A study of Mus musculus with 2 samples.

Results

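A set of 5 genes of one signalling system were followed across the nuclei of the mouse hippocampus: the neurotrophins Bdnf (brain-derived neurotrophic factor, ENSMUSG00000048482) and Ntf3 (neurotrophin-3, ENSMUSG00000049107), the receptor tyrosine kinases Ntrk2 (TrkB, ENSMUSG00000055254) and Ntrk3 (TrkC, ENSMUSG00000059146), and Vgf (ENSMUSG00000037428), the precursor of secreted peptides whose gene is induced by neurotrophins. They were chosen by gene symbol, and all 5 were present once among the 33696 genes counted in each library. The series concerns Capicua, the DNA-binding repressor encoded by Cic, and the targeting of mossy fibers, the axons of dentate granule neurons, onto CA3. Nuclei came from mice of postnatal day 19. The library called Control here held nuclei of Cicflox/flox mice, and the library labelled KO held nuclei of their Emx1-Cre; Cicflox/flox littermates, so that both groups carried the floxed Cic alleles and only the second carried Cre. Each library pooled 3 mice, 2 males and 1 female, with 1 hippocampus from each. Emx1-Cre acts in the lineage of the dorsal forebrain, which gives rise to excitatory neurons, astrocytes and part of the oligodendrocyte lineage; most inhibitory neurons and the microglia arise outside it.

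Neurotrophins are made as precursors, sorted into secretory vesicles with the help of the sortilin family and carboxypeptidase E, and cleaved by furin, other proprotein convertases or plasmin. BDNF binds TrkB and neurotrophin-3 binds TrkC; the activated receptors recruit the adaptors Shc and Frs2 and phospholipase C gamma, and signal through Ras and ERK, PI3 kinase and calcium. In the hippocampus Bdnf transcription depends on neuronal activity, its protein is carried along mossy fibers, and Ntf3 is a known marker of dentate granule and CA2 neurons. Astrocytes express Ntrk2 largely as a truncated receptor that lacks the kinase domain, and Vgf is a target of both neurotrophin signalling and activity. Capicua represses genes such as Etv4 until receptor tyrosine kinase signalling through ERK relieves it.

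The comparison rested on 21783 Control nuclei (median 9786 unique molecular identifiers, UMIs) and 20569 nuclei of the library labelled KO (median 8765); 175 cell barcodes occurred in both libraries. Levels are given in CPM, the UMIs of a gene as a share of all UMIs of its class in 1 library, scaled to the usual fixed total and not corrected for gene length, so levels of different genes are not compared, and ratios are log2 of the library labelled KO over Control with 0.5 UMI added to each sum. Because each group was 1 pooled library, no difference could be tested; the 95% intervals cover counting error only and not differences between mice or preparations. Counts of Cic itself were no lower in the second library: Cic stood at 9.19 CPM (493 UMIs) in dentate granule-like nuclei of Control and at 12 (411 UMIs) in the library labelled KO, a log2 ratio of 0.38 (interval 0.19 to 0.57), and its ratio was 0.75 (interval 0.49 to 1.02) in CA3-like nuclei. Counts per gene from transcript ends do not show whether the floxed exons were lost, so the second library is called by its label throughout. Etv4 differed far more, with 56 against 3808 UMIs in dentate granule-like nuclei (log2 ratio 6.72) and 44 against 167 in inhibitory-like nuclei (2.08). Whether the inhibitory-like Etv4 UMIs come from RNA of these nuclei themselves was not tested.

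Nuclei fell into 15 classes with at least 100 nuclei in each library, named from markers; dentate granule, CA3, CA2 and CA1 neurons each formed such a class, so the principal neurons of the labelled tissue were present. Clusters that stayed unnamed took 17.2% of the Control library and 19.8% of the library labelled KO. The libraries did not share clusters evenly. Dentate granule-like nuclei of Control lay mostly in cluster 1 (96.4%) and those of the library labelled KO in cluster 3 (98.2%); CA1-like nuclei lay mostly in cluster 9 (86.4%) and cluster 7 (99.5%), and oligodendrocyte-like nuclei in cluster 11 (81%) and cluster 13 (77.8%). The other classes drew on the same leading cluster in both libraries. The endothelial-like class also held markers of mural cells and fibroblasts and had only 102 and 137 nuclei. Over all genes with at least 20 UMIs the median log2 ratio of a class lay between -0.087 (oligodendrocyte-like) and 0.10 (CA2-like), and was 0.015 in dentate granule-like nuclei.

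The 5 genes did not move together between the libraries. Vgf was higher in the library labelled KO in every one of the 15 classes, microglia-like nuclei included, with a ratio past 2-fold and past the count minimum in 6 of them, and its interval lay above 0 in 13. Bdnf was modestly higher, above 0 in 13 classes and with its interval above 0 in 5. The median over all genes with at least 20 UMIs was also below 0 only in oligodendrocyte-like (-0.087) and endothelial-like nuclei (-0.00063). Bdnf was below 0 in these same classes, so its count of classes above 0 does not set it apart from the median gene. The receptors were modestly lower in most classes: the interval lay below 0 in 10 classes for Ntrk2 and in 8 for Ntrk3. Ntf3 was lower in the named classes where it was highest, with 4 intervals below 0 and 1 above. How many of all genes had an interval off 0 was not counted, and at high counts a small difference is enough. The 15 classes come from the same 2 libraries, so these counts of classes are description only.

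A size rule, a 2-fold difference or more where the higher library had 50 UMIs and 10 CPM or more, was read against its background, the share of measurable genes of a class that passed it. Vgf was the 1 member of 5 that passed, always higher in the library labelled KO: in dentate granule-like nuclei (background of genes passing in that direction 2.1%), immature dentate granule-like nuclei (0.271%), CA3-like nuclei (1.2%), subicular or cortical excitatory-like nuclei (0.925%), oligodendrocyte precursor-like nuclei (0.158%) and microglia-like nuclei (0.198%). No member passed in either direction in CA1-like nuclei (background 4.25%), CA2-like nuclei (3.33%), Cajal-Retzius-like nuclei (1.45%), inhibitory-like nuclei (0.114%), astrocyte-like nuclei (0.244%), cycling progenitor-like nuclei (0.891%), committed oligodendrocyte precursor-like nuclei (1.33%), oligodendrocyte-like nuclei (3.12%) or endothelial-like nuclei (5.66%). Not all 6 passes held in every alternative. In oligodendrocyte precursor-like nuclei the Vgf ratio was 0.40 in female and 1.59 in male nuclei and 0.61 with each nucleus thinned to 2000 UMIs, so the call was lost in the females and on thinning. Thinning also brought microglia-like nuclei under 2-fold (0.87), and in male CA3-like nuclei the ratio was 0.98, just under it. Microglia-like nuclei serve below as the reference for RNA from outside the nucleus. Against them, Vgf UMIs per nucleus were 1.08 (Control) and 1.29 times as many in oligodendrocyte precursor-like nuclei. In immature dentate granule-like nuclei the multiples were 1.06 and 1.29. Whether the passes of these classes come from RNA of the nuclei themselves was not tested.

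**Figure D1:**
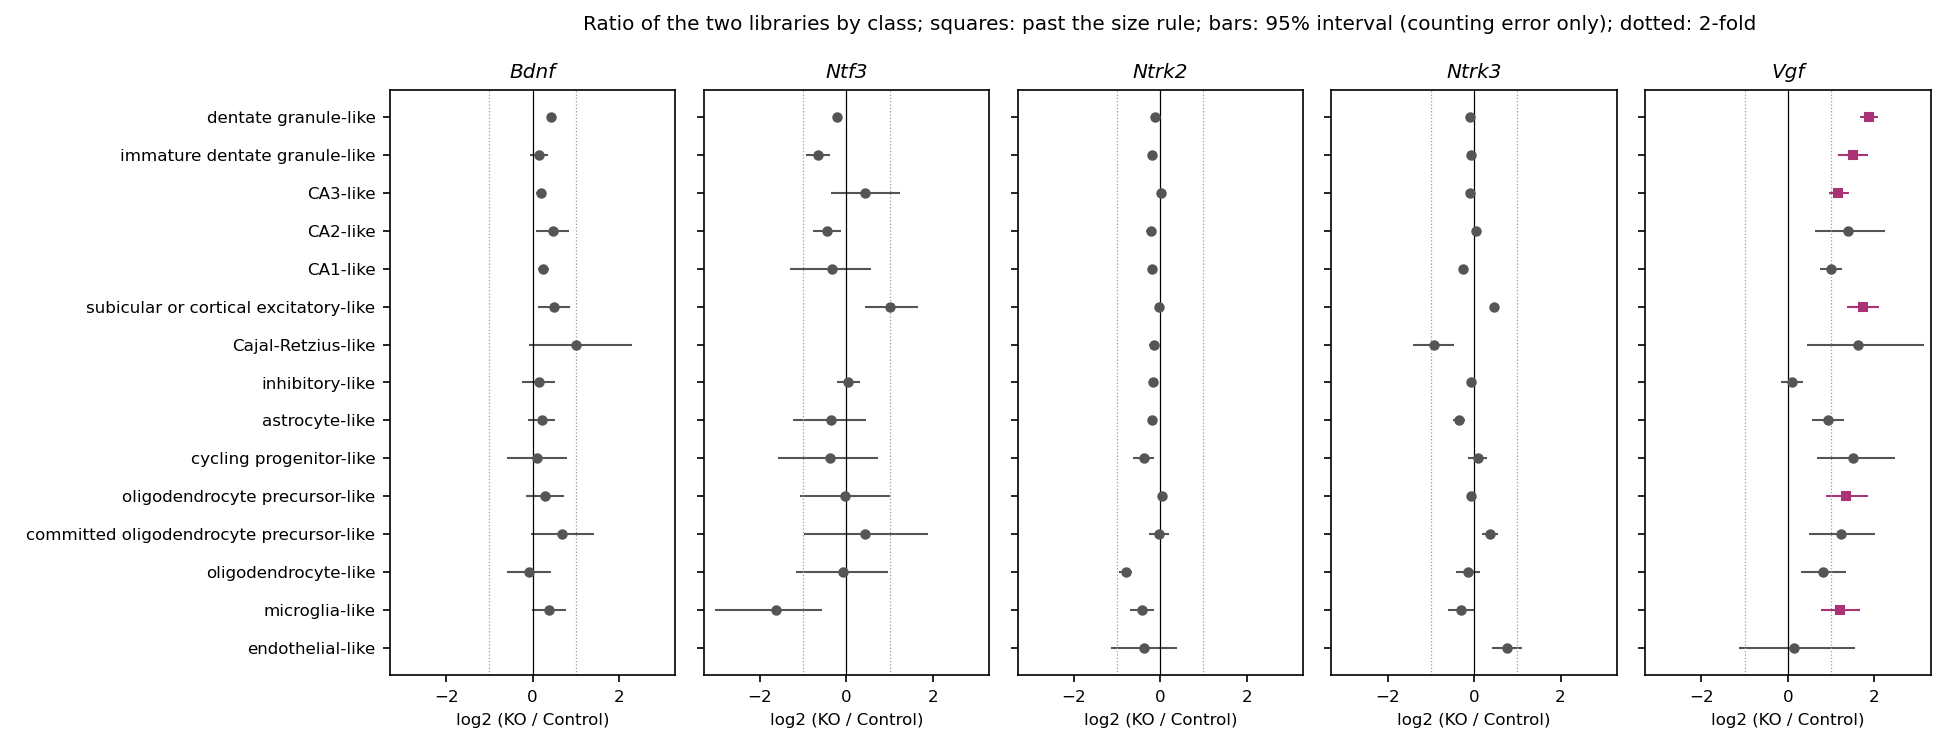
Log2 ratio of the library labelled KO over Control (x axis) for the 5 genes (panels) in 15 nuclear classes (rows), with 95% intervals for counting error; squares passed the size rule, dotted lines mark 2-fold, and a point is left out where both libraries together held fewer than 20 UMIs. The Vgf points lie to the right of 0 in all classes except inhibitory-like and endothelial-like by 0.82 or more, while those of Ntrk2 lie between -0.79 and 0.033.

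Among the named classes Bdnf was highest in dentate granule-like nuclei, with the pyramidal classes below them. In the granule class it stood at 74.1 CPM in Control (3974 UMIs) and at 99.2 in the library labelled KO (3403 UMIs), 1.34-fold higher, with a log2 ratio of 0.42 (interval 0.35 to 0.49). CA3-like nuclei came next with 48.4 and 55 CPM (Control first, here and below), apart from the classes on either side in both libraries. CA1-like (38.5 and 45.7), immature dentate granule-like (38.8 and 43.2), microglia-like (32.6 and 42.6) and CA2-like nuclei (32.5 and 44.7) followed with intervals that overlapped their neighbours in the order. Below them came cycling progenitor-like (28 and 30.1), astrocyte-like (19.3 and 22.4), endothelial-like (16.6 and 16.8), oligodendrocyte precursor-like (13.5 and 16.5), Cajal-Retzius-like (9.78 and 20.2), subicular or cortical excitatory-like (9.12 and 12.8) and committed oligodendrocyte precursor-like nuclei (8.34 and 13.4), again mostly with overlapping intervals. Oligodendrocyte-like (7.76 and 7.29) and inhibitory-like nuclei (5.79 and 6.39) held the least. Some unnamed clusters were above the granule class, in Control clusters 33 and 27 (99.7 and 105 CPM) and in the library labelled KO cluster 28 (162, 27 UMIs). Cluster 15 (82.9 and 103) was above it in both with overlapping intervals.

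In glia the Bdnf counts per nucleus were near those of microglia-like nuclei, taken here as the reference for RNA from outside the nucleus. Free RNA itself was not measured. A microglia-like nucleus held 0.0721 Bdnf UMIs on average in Control and 0.0773 in the library labelled KO. Dentate granule-like nuclei held 12.6 and 14.2 times that number, but astrocyte-like nuclei only 1.26 and 1.21 times and oligodendrocyte-like nuclei 0.905 and 0.836 times. In Control 47.9% of dentate granule-like nuclei held a Bdnf UMI (median depth 11764 UMIs), as did 58.4% in the library labelled KO (10659 UMIs), against 6.62% and 6.87% of microglia-like nuclei at medians of 2139 and 1730 UMIs. With every nucleus thinned to 2000 UMIs, the granule shares were 12.6% and 17.5% (2 and 7 shallower nuclei left out), and the microglia-like shares 5.59% and 7.87% (670 and 966 left out).

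The higher Bdnf level of the library labelled KO was steadiest in granule neurons. The dentate granule-like ratio was 0.44 in female and 0.41 in male nuclei, and 0.39 when the nuclei were clustered without the genes past the size rule, which brought the libraries into shared granule clusters. Cluster by cluster the picture was less even: in cluster 1 the level was 72.8 over 4202 Control nuclei and 169 over 56 nuclei of the library labelled KO, and in cluster 3 it was 109 over 158 and 98 over 3039 nuclei. In CA3-like nuclei the ratio was 0.18 (interval 0.075 to 0.29), with 0.0033 in female and 0.15 in male nuclei. A Bdnf UMI was found in 34.6% of CA3-like nuclei in Control and 49.5% in the library labelled KO, with 1.15 UMIs per nucleus in both. Thinned to 2000 UMIs, these shares were 7.96% and 8.84%. In CA1-like nuclei it was 0.24 (interval 0.12 to 0.37), and the sexes stood apart, at 0.72 (interval 0.47 to 0.97) in female and 0.069 (-0.11 to 0.25) in male nuclei. When each nucleus was thinned to 2000 UMIs the direction turned in these classes on few counts. The ratio was then -0.015 in CA3-like (134 and 123 UMIs) and -0.10 among CA1-like nuclei (136 and 105 UMIs). In CA2-like nuclei it was 0.46 and stayed above 0 in all 11 alternatives, the lowest 0.095. Inhibitory-like nuclei gave 0.14 (interval -0.24 to 0.52).

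Bdnf has several promoters, and counts from the ends of transcripts do not tell them apart. RefSeq lists 7 start sites of Bdnf, 2 of Ntf3 and 1 of Ntrk2 on GRCm38.p6 in the table used; Ntrk3 and Vgf have no entry there. The windows from 250 bases before to 50 after each start were searched on both strands for the octamers bound by Capicua (TGAATGAA, TGAATGGA, TCAATGAA and TCAATGGA, of which at least 1 was in 3.77% of 32544 promoter windows) and for the cyclic AMP response element in the forms TGACGTCA (1.80% of windows) and TCACGTCA (0.446%). No window of the 3 genes held one of the Capicua octamers, which says only that these letters are not there. The response element TCACGTCA occurred in 1 window, at the third Bdnf start site in the order along the gene; the 250 bases before that start (plus strand) are shown because this element is the known site through which calcium and CREB act on Bdnf, with the element, which begins at position -38 from the start, in capitals:
Bdnf chr2:109692186-109692435: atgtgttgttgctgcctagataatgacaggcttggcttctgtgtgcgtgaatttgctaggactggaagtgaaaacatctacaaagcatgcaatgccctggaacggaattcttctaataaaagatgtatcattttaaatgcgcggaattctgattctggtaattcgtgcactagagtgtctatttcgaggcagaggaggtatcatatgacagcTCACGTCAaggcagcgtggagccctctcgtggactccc

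Since Bdnf and Vgf respond to activity, the immediate-early genes are given beside them. They were mostly lower in the library labelled KO. Egr1 (a zinc finger factor) stood at 18.4 and 7.51 CPM in CA1-like nuclei, a ratio of -1.29 (interval -1.56 to -1.03), and gave -1.07 in CA3-like and -0.55 in dentate granule-like nuclei. Arc (a synaptic capsid-like protein) gave -1.59, -0.67 and -0.86 in the granule, CA3 and CA1 classes, Npas4 (a factor induced by calcium) -0.62, -1.34 and -0.51, Homer1 (a postsynaptic scaffold) 0.0032, -0.71 and -0.58, Fos -0.57, -0.48 and 0.78, and Nr4a1 (a nuclear receptor) 0.63, 0.065 and -0.069. Between the sexes the values stood apart for some of them: over all nuclei the Fos ratio was 1.42 in female and 0.035 in male nuclei, and that of Arc 0.045 and -0.91. Such ratios over all nuclei also depend on the share of each class in a library. Of the 16 activity-regulated genes listed, 11 of 15 with at least 20 UMIs were lower in dentate granule-like nuclei (median -0.55, all genes 0.015), 13 of 15 in CA3-like (-0.35, all genes 0.080) and 13 of 16 in CA1-like nuclei (-0.36, all genes 0.099). The count minimum of the size rule was reached by 3, 6 and 11 of them in these classes. The granule value of Arc and the CA3 values of Egr1 and Npas4 were past 2-fold but under that minimum.

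Among nuclei without a UMI of Fos, Egr1, Arc, Npas4, Nr4a1 or Junb, a split added after the data were seen, the Bdnf ratio was larger in CA3-like and CA1-like nuclei. Bdnf stood at 21.4 and 39.2 CPM in such CA3-like nuclei (0.88, interval 0.69 to 1.07), at 24.5 and 37.2 in CA1-like (0.60) and at 69.8 and 98.2 in dentate granule-like nuclei (0.49). In nuclei with such a UMI the levels were 86 and 82.6, 44.2 and 51.1 and 95 and 105, with ratios of -0.057, 0.21 and 0.15. In both libraries Bdnf was higher in the nuclei with an activity-gene UMI in all 3 of these classes, although a deeper nucleus is more likely to hold such a UMI. Nuclei without one were 748 of 1244 and 761 of 1154 CA3-like nuclei, and 476 of 1555 and 517 of 1290 CA1-like nuclei. Depth and most activity genes were lower in the library labelled KO, so the split may choose unlike nuclei in the 2 libraries. Whether the Bdnf ratio is independent of activity was not tested. In CA2-like nuclei the Bdnf ratio was instead smaller without such a UMI, at 0.095 (interval -0.67 to 0.85, 32 and 31 UMIs). With one it was 0.63 there. For Vgf the ratio was 1.94 without and 1.61 with an activity-gene UMI in dentate granule-like nuclei, 1.42 and 0.99 in CA3-like, and 1.52 and 0.77 in CA1-like nuclei.

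Ntf3 was highest among the named classes in dentate granule-like nuclei. They stood at 80.9 CPM in Control (4341 UMIs) and 69.2 in the library labelled KO (2376), CA2-like nuclei at 63.8 (222) and 46.7 (119), and immature dentate granule-like nuclei at 33 (318) and 20.9 (178); among the 15 named classes these 3 led in that order in both libraries. The unnamed cluster 30 (102 and 161 nuclei) stood at 56.4 and 150.4 CPM, above all of them in the library labelled KO, and the unnamed clusters 15 and 27 at 72.6 and 47.2 and at 52.6 and 60.4. CA3-like and CA1-like nuclei, on either side of CA2, held almost none, with 0.946 and 1.28 and 1.04 and 0.818 CPM. A Ntf3 UMI was found in 1.93% and 2.08% of CA3-like nuclei and in 1.92% and 0.533% of the shallower microglia-like nuclei, near each other in Control only. Of dentate granule-like nuclei, 53.4% and 45% held one. Inhibitory-like nuclei held 11.9 and 12.3 CPM, cycling progenitor-like 12.9 and 9.77 and the subicular or cortical excitatory class 2.98 and 6.09. The inhibitory-like level was uneven: cluster 10, with 52.5% and 48.2% of these nuclei, stood at 6.50 and 6.31. Endothelial-like nuclei, with 5 and 2 UMIs, stood at 16.6 and 4.81, microglia-like at 9.57 and 2.94, Cajal-Retzius-like at 3.91 and 0.920, astrocyte-like at 3.59 and 2.78, oligodendrocyte precursor-like at 3.08 and 3.01, committed precursors at 2.59 and 3.50 and oligodendrocyte-like nuclei at 1.91 and 1.79. Below the 3 leading classes every neighbour in the order overlapped the next in both libraries.

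In the 3 leading named classes Ntf3 was lower in the library labelled KO, though not in both sexes or in each granule cluster. The log2 ratio was -0.65 (interval -0.93 to -0.39) in immature dentate granule-like nuclei, where Control was 1.57-fold higher, -0.45 (interval -0.78 to -0.12) in CA2-like nuclei and -0.22 (interval -0.30 to -0.15) in dentate granule-like nuclei. Both sexes were below 0 in immature dentate granule-like (-0.49 in female and -0.63 in male nuclei) and CA2-like nuclei (-0.18 and -0.78). In dentate granule-like nuclei the ratio rested on the males: -0.36 in male nuclei (87.4 and 68 CPM) and 0.062 in female nuclei (68.8 and 71.9), so the direction turned in the females. By cluster, Ntf3 stood at 82 and 61 CPM in cluster 1, a ratio of -0.41 (interval -0.96 to 0.059), but at 52.3 and 69.4 in cluster 3, a ratio of 0.40 (0.12 to 0.71), opposite to the class. Clustered without the genes past the size rule, the class gave -0.25. In cluster 30 the ratio was 1.41 (1.08 to 1.77). Subicular or cortical excitatory-like nuclei went the other way, with 36 and 71 UMIs and a ratio of 1.02 (interval 0.43 to 1.65), at a level under the minimum of the size rule and at a ratio of 0.25 with doublets kept. By sex, Ntf3 in microglia-like nuclei gave -2.63 in female and -0.12 in male nuclei. Over all nuclei of the class, microglia-like nuclei held 32 and 8 Ntf3 UMIs, a ratio of -1.64 (interval -3.03 to -0.56), lower in the library labelled KO in a class that should lack the gene.

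**Figure D2:**
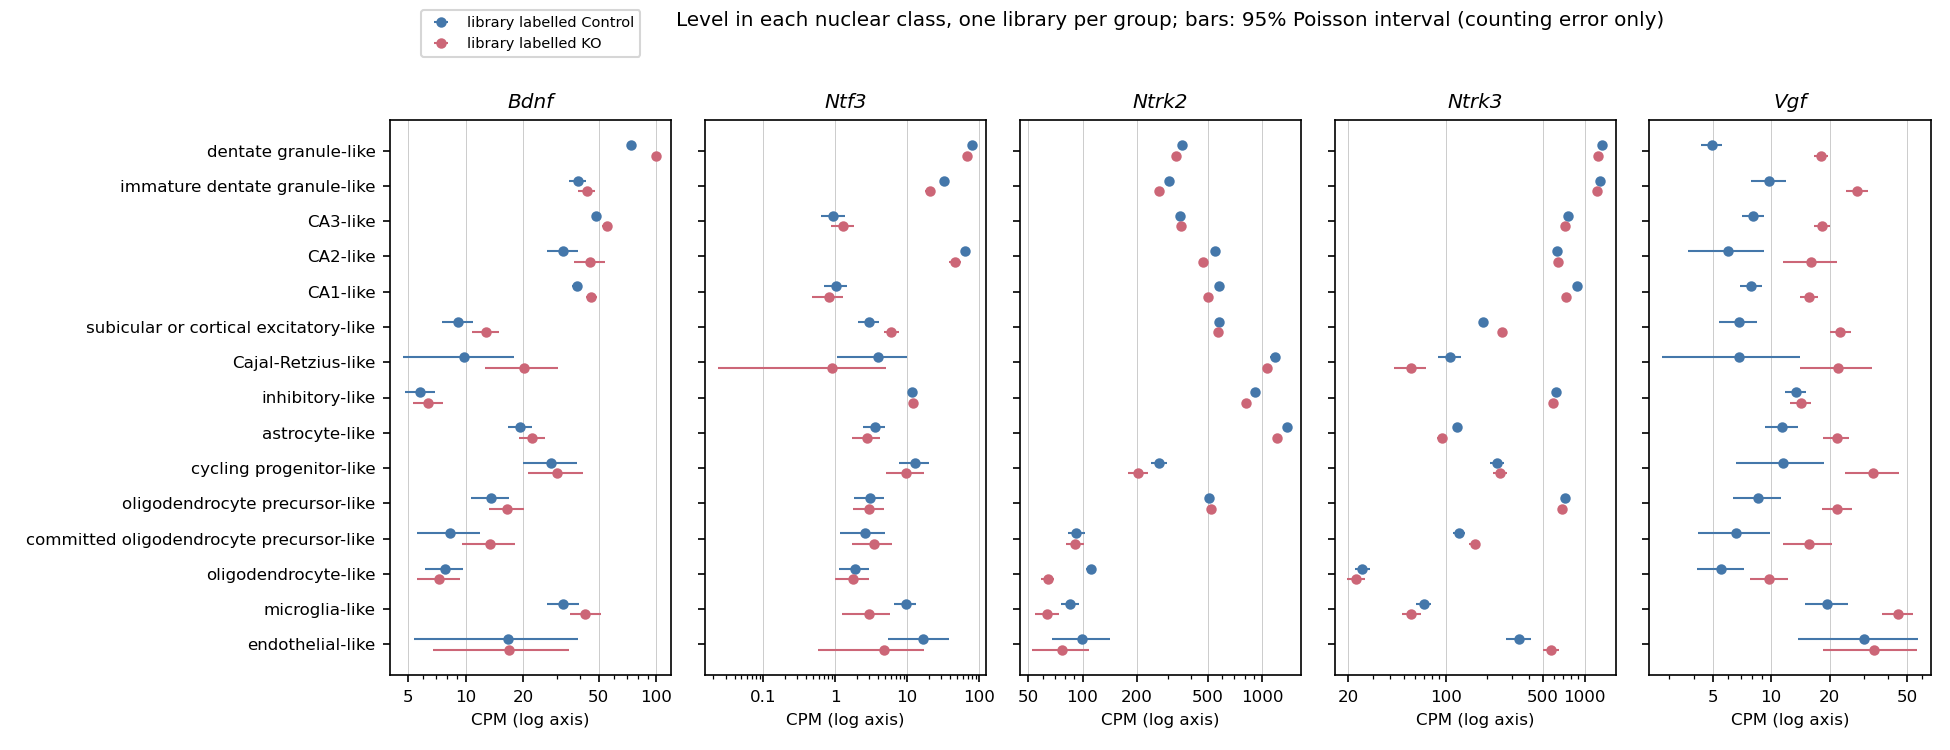
CPM (log x axes) of the 5 genes (panels) in 15 nuclear classes (rows) for the Control library and the library labelled KO, with 95% Poisson intervals that cover counting error only. Ntf3 is highest in dentate granule-like and CA2-like nuclei, Ntrk2 leads in astrocyte-like nuclei, Ntrk3 in dentate granule-like nuclei, and the Vgf values of the library labelled KO lie to the right of those of Control in all 15 classes.

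Ntrk2, the receptor of BDNF, was highest in astrocytes and was found in nearly every CA1-like nucleus. Astrocyte-like nuclei stood at 1373 and 1211 CPM, Cajal-Retzius-like nuclei at 1178 and 1069 and inhibitory-like nuclei at 913 and 819, each apart from the next in both libraries. Next were subicular or cortical excitatory-like (578 and 569.6), CA1-like (579 and 503), CA2-like (549 and 471) and oligodendrocyte precursor-like nuclei (509 and 521), whose order differed between the libraries and whose intervals partly overlapped. Dentate granule-like (358 and 332), CA3-like (348 and 352), immature dentate granule-like (304 and 266) and cycling progenitor-like nuclei (267 and 204) came below them. Oligodendrocyte-like (111 and 64.1), endothelial-like (99.6 and 76.9), committed oligodendrocyte precursor-like (92.6 and 91) and microglia-like nuclei (85.2 and 63.5) were lowest. A Ntrk2 UMI was found in 99.5% and 99.3% of CA1-like nuclei and in 15.3% and 10.5% of microglia-like nuclei.

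The Ntrk2 difference between the libraries was small in neurons and larger in mature oligodendrocytes. The log2 ratio was -0.20 (interval -0.24 to -0.17) in CA1-like nuclei, -0.16 (interval -0.19 to -0.13) in inhibitory-like nuclei, -0.11 (interval -0.14 to -0.076) among dentate granule-like nuclei and in CA3-like nuclei 0.020 (interval -0.022 to 0.061), where another scaling turned the sign (-0.068 with TMM). By granule cluster it was 0.27 (0.077 to 0.45) in cluster 1, opposite to the class, and -0.47 (-0.57 to -0.37) in cluster 3. Astrocyte-like nuclei gave -0.18 (interval -0.22 to -0.14), -0.20 in female and -0.14 in male nuclei. Oligodendrocyte-like nuclei held 1102 and 536 UMIs, and Control was 1.73-fold higher, with a ratio of -0.79 (interval -0.95 to -0.64), -1.05 in female and -0.69 in male nuclei. The level in this class was 85.1 and 54.6 in cluster 11, where most Control nuclei lay, and 188 and 65.9 in cluster 13, where most nuclei of the library labelled KO lay. Gm597 and Casr, leading genes of cluster 13, headed separate clusters at Leiden resolution 2, with 4 and 497 and with 178 and 202 nuclei. The nuclei of cluster 13 may therefore differ in kind between the libraries. In their precursors the interval held 0: oligodendrocyte precursor-like nuclei gave 0.033 (interval -0.041 to 0.11) and committed precursors -0.024 (interval -0.26 to 0.21). Microglia-like nuclei gave -0.42 (interval -0.71 to -0.15), and per nucleus the oligodendrocyte-like level was 4.95 times the microglia-like one in Control and 4.93 times in the library labelled KO; the part of free RNA in the oligodendrocyte difference was not tested.

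Ntrk3, the receptor of neurotrophin-3, was highest in granule neurons among the named classes. It stood at 1337 and 1244 CPM in dentate granule-like nuclei (71743 and 42690 UMIs) and at 1284 and 1215 in immature dentate granule-like nuclei, where the 2 classes were apart in Control and overlapped in the library labelled KO. CA1-like (873 and 736), CA3-like (762 and 717), oligodendrocyte precursor-like (716 and 679.9), CA2-like (626 and 642) and inhibitory-like nuclei (622 and 594) followed in this order in both libraries, with CA2-like and inhibitory-like nuclei overlapping in Control and CA1-like with CA3-like and precursors with CA2-like nuclei in the library labelled KO. Endothelial-like (335 and 569.8), cycling progenitor-like (234 and 248), subicular or cortical excitatory-like (185 and 256), committed oligodendrocyte precursor-like (125 and 162), astrocyte-like (120.2 and 94.2), Cajal-Retzius-like (108 and 56.1), microglia-like (69.7 and 56.9) and oligodendrocyte-like nuclei (25.3 and 22.8) were lower. The level dropped along the oligodendrocyte lineage in both libraries, from precursors through committed precursors to oligodendrocyte-like nuclei.

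The ratio of Ntrk3 was within -0.93 and 0.76 in the 15 classes and took both signs. It was -0.10 (interval -0.12 to -0.087) in dentate granule-like, -0.088 (interval -0.12 to -0.059) in CA3-like and -0.25 (interval -0.28 to -0.22) among CA1-like nuclei; the CA1-like value was -0.45 in female and -0.14 in male nuclei. Subicular or cortical excitatory-like nuclei stood at 256 against 185 CPM in Control, a ratio of 0.46 (interval 0.38 to 0.54), with 0.54 in female and 0.47 in male nuclei. Over 12 alternatives this ratio stayed above 0 but ran from 0.20 with doublets kept to 0.75 in nuclei with no activity-gene UMI. Committed oligodendrocyte precursor-like nuclei were also higher in the library labelled KO, at 0.38 (interval 0.19 to 0.56), as were endothelial-like nuclei, at 0.76 (interval 0.42 to 1.11) over 101 and 237 UMIs. Cajal-Retzius-like nuclei were lower, with 110 and 61 UMIs and -0.93 (interval -1.41 to -0.47), -0.73 in female and -1.36 in male nuclei.

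Vgf was the gene of the set that differed most. Dentate granule-like nuclei of Control held 265 Vgf UMIs (4.94 CPM) and those of the library labelled KO 619 (18 CPM), 3.65-fold higher, with a log2 ratio of 1.87 (interval 1.66 to 2.08). CA3-like nuclei, the targets of the mossy fibers, held 240 (8.11) and 442 UMIs (18.3 CPM), a ratio of 1.17 (interval 0.94 to 1.41). The ratio was 1.5 (interval 1.15 to 1.86) in immature dentate granule-like nuclei (94 and 235 UMIs), 1.74 (interval 1.38 to 2.12) among subicular or cortical excitatory-like nuclei (82 and 265), 1.40 (interval 0.62 to 2.25) in CA2-like nuclei (21 and 41) and 0.99 (interval 0.75 to 1.25) in CA1-like nuclei (227 and 326), where it just missed 2-fold. Thinned to 2000 UMIs per nucleus, the CA2-like ratio was 0.23. Female and male nuclei had the same direction in the main classes, with 1.68 and 2.08 in dentate granule-like, 1.53 and 0.98 in CA3-like and 1.26 and 0.75 among CA1-like nuclei.

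The inhibitory-like nuclei stood apart. They held 277 UMIs in Control (13.4 CPM) and 263 in the library labelled KO (14.2 CPM), a log2 ratio of 0.092 (interval -0.16 to 0.34) that did not overlap the interval of any of the 6 classes past the size rule. In Control they held 0.244 Vgf UMIs per nucleus, more than the 0.0608 of dentate granule-like and the 0.193 of CA3-like nuclei; in the library labelled KO they held 0.219, against 0.200 and 0.383. The difference of the ratios between classes was not tested, since there is 1 library per group. By CPM the order of the classes differed from the order per nucleus, with endothelial-like (29.9 and 33.7) and microglia-like nuclei (19.4 and 44.8) at the top and dentate granule-like nuclei (4.94 and 18) last in Control. Between them lay cycling progenitor-like (11.5 and 33.4), astrocyte-like (11.4 and 21.7), immature dentate granule-like (9.76 and 27.7), oligodendrocyte precursor-like (8.56 and 21.9), Cajal-Retzius-like (6.84 and 22.1), subicular or cortical excitatory-like (6.80 and 22.7), CA2-like (6.03 and 16.1), CA1-like (7.87 and 15.7), committed oligodendrocyte precursor-like (6.61 and 15.6) and oligodendrocyte-like nuclei (5.54 and 9.80). Every neighbour in the order overlapped the next in Control, and in the library labelled KO only oligodendrocyte-like nuclei stood apart, below all others.

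Vgf UMIs were also more frequent in classes that should hold little Vgf. Microglia-like nuclei held 65 and 122 UMIs, or 0.0430 and 0.0813 per nucleus, with a ratio of 1.20 (interval 0.76 to 1.66); oligodendrocyte precursor-like nuclei gave 1.35 (interval 0.87 to 1.86), committed precursors 1.22 (interval 0.50 to 2.02), cycling progenitor-like 1.51 (interval 0.67 to 2.47), Cajal-Retzius-like 1.62 (interval 0.43 to 3.15), astrocyte-like 0.93 (interval 0.57 to 1.29), oligodendrocyte-like 0.82 (interval 0.31 to 1.34) and endothelial-like nuclei 0.14 (interval -1.14 to 1.56). Per nucleus, the level of dentate granule-like nuclei was 1.41 times the microglia-like level in Control and 2.46 times in the library labelled KO, that of CA3-like nuclei 4.48 and 4.71 times, and that of immature dentate granule-like nuclei 1.06 and 1.29 times. With the microglia-like level taken from every nucleus, an adjustment added after the data were seen, the log2 ratio became 2.88 for the granule class, 1.19 for CA3, 0.94 for CA1, -0.30 for inhibitory-like nuclei. Among the classes near the microglia-like level it went both ways, to 0.029 in astrocyte-like and 0.54 in oligodendrocyte-like nuclei, but 2.79 in oligodendrocyte precursor-like, 1.92 in committed precursor-like and 3.27 in immature dentate granule-like nuclei, where few UMIs were left in Control.

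**Figure D3:**
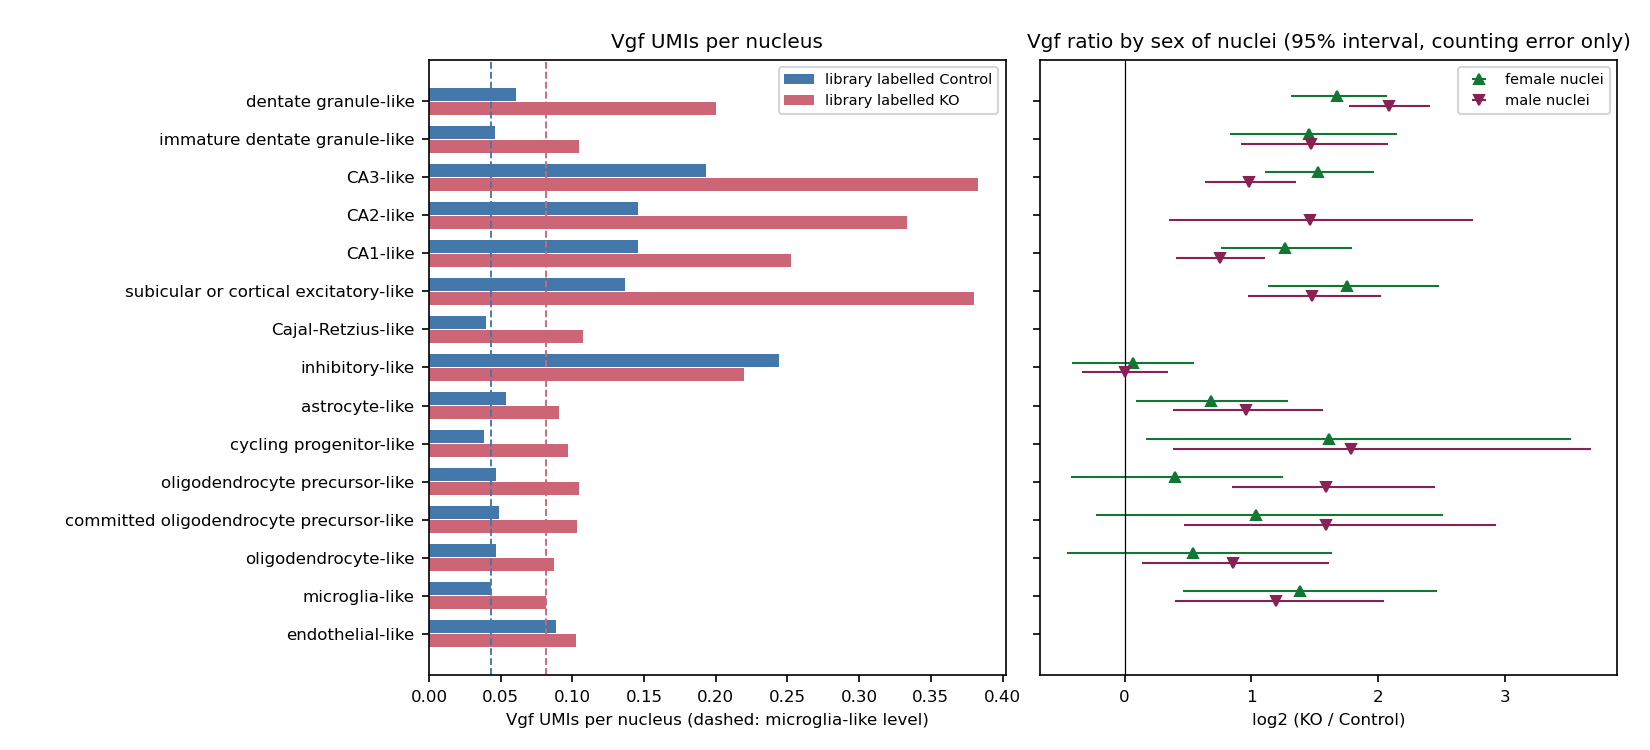
Left, Vgf UMIs per nucleus (x axis, bars from 0) in 15 classes for both libraries, with dashed lines at the microglia-like level of each; right, log2 ratio of the library labelled KO over Control in female and in male nuclei with 95% intervals for counting error, shown where both libraries together held at least 20 UMIs. The CA3, CA2, CA1, subicular or cortical and inhibitory bars are the longest in Control, and the inhibitory-like ratios lie at 0.062 and 0.0048.

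The share of nuclei with a Vgf UMI was 5.80% of dentate granule-like nuclei in Control and 17.9% in the library labelled KO, 16.1% and 30.3% of CA3-like nuclei, 19.8% and 18.2% of inhibitory-like nuclei, and 4.04% and 8.0% of microglia-like nuclei. Median depths were 11764 and 10659 UMIs in dentate granule-like, 23188 and 20252 in CA3-like, 17231 and 14392 in inhibitory-like and 2139 and 1730 in microglia-like nuclei. After thinning to 2000 UMIs these shares came to 0.918% and 3.79%, 1.21% and 3.64%, 3.09% and 3.43%, and 3.45% and 6.74%, so that at equal depth the share of each of these neuronal classes was below the microglia-like one in both libraries. Per nucleus without thinning, CA3-like and inhibitory-like nuclei held several times the microglia-like number (5.67 and 2.70 times in inhibitory-like nuclei). Thinning removes a larger part of a deep nucleus than of a shallow one, so no background level is read from the thinned shares. At most 5 Vgf UMIs were counted in any nucleus of these 15 classes. Within cluster 3, where most dentate granule-like nuclei of the library labelled KO lay, the level was 6.80 CPM over 13 UMIs in Control and 17.9 over 604 in the library labelled KO; in cluster 6, which held 76.1% and 75.1% of CA3-like nuclei, it was 6.96 and 15.5, a log2 ratio of 1.15.

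Ntf5 and Ngfr, 2 other genes of the family, were too sparse to compare. Ntf5 (neurotrophin-4) had 25 and 27 UMIs over all nuclei, and Ngfr (the low-affinity receptor shared by the neurotrophins) 24 and 46, of which 10 and 24 lay in the subicular or cortical excitatory class.

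Among 13 genes of neurotrophin sorting and processing, in the granule, CA3 and CA1 classes the genes past the size rule were 2 sorting receptors. This list and the other gene lists were chosen with earlier results of these data known. Their shares past 2-fold are therefore description only, also where they are above the background. Sorcs3 stood at 57.5 CPM in dentate granule-like nuclei of Control (3084 UMIs) and at 17 in the library labelled KO (584), a log2 ratio of -1.75 (interval -1.89 to -1.63), and at -0.30 in CA3-like and -0.26 among CA1-like nuclei. Sorcs1 gave -1.09 (-1.34 to -0.86) in dentate granule-like nuclei, -1.42 (-1.58 to -1.27) in CA1-like nuclei (1568 and 421 UMIs) and -0.15 in CA3-like nuclei. Their relatives differed less: Sort1, which carries pro-BDNF, gave -0.29, 0.039 and -0.26 in the granule, CA3 and CA1 classes, and Sorcs2 0.23, -0.23 and 0.35. Of the list, 2 of 9 genes past the count minimum were at least 2-fold lower in dentate granule-like nuclei (background 1.27%), 0 of 9 in CA3-like (0.379%) and 1 of 8 in CA1-like nuclei (1.03%), and none was higher in these classes; the list medians were -0.29, -0.053 and -0.079. The convertases were close to 0 or of low count, with Furin at 0.075, Pcsk5 at 0.27 and Pcsk7 at -0.059 in dentate granule-like nuclei; Cadps2, which promotes release of neurotrophin vesicles, gave -0.53 there and 0.67 in CA1-like nuclei.

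Among 24 adaptors and effectors of Trk receptors, the adaptor Shc3, a neuronal member of the Shc family, was far higher in the library labelled KO. In dentate granule-like nuclei it stood at 20 CPM in Control (1073 UMIs) and 250.05 in the library labelled KO (8580), a log2 ratio of 3.64 (interval 3.55 to 3.74), and the ratio was 1.66 in CA3-like and 1.47 among CA1-like nuclei. The docking protein Gab1 gave 2.99 (2.64 to 3.38) in CA3-like nuclei, with 72 and 470 UMIs, but 122 and 78 UMIs in dentate granule-like nuclei, 2.27 and 2.27 CPM. Hap1, which binds vesicles that carry BDNF, gave 1.16 (0.93 to 1.39) in CA1-like nuclei, 0.36 in CA3-like and 0.37 among dentate granule-like nuclei. The core adaptors were near 0, with Frs2 at 0.077, Grb2 at -0.095, Plcg1 at 0.19 and Kidins220 at 0.026 in dentate granule-like nuclei. At least 2-fold higher were 1 of 19 genes past the count minimum in dentate granule-like, 2 of 20 in CA3-like and 2 of 19 among CA1-like nuclei (backgrounds 2.1%, 1.2% and 3.23%), none was lower, and the list medians of 0.0082, 0.14 and 0.14 lay beside 0.015, 0.080 and 0.099 over all genes.

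The other cargo of dense-core vesicles mostly stayed under 2-fold. Of 18 genes of these vesicles and of neuropeptides, 0 of 10 past the count minimum were at least 2-fold higher in dentate granule-like, 0 of 10 in CA3-like and 1 of 11 among CA1-like nuclei (backgrounds 2.1%, 1.2% and 3.23%), and none was lower. The 1 gene was Scg3, a granin that helps sort cargo, at 35.8 and 76.4 CPM and a log2 ratio of 1.09 (0.98 to 1.21) in CA1-like nuclei; it gave 0.86 in CA3-like and 0.40 in dentate granule-like nuclei. Scg2, another granin, gave -0.22, 0.033 and 0.52 in the granule, CA3 and CA1 classes, Chga 0.024, 0.28 and 0.52, and Chgb -0.22, -0.28 and -0.11. The convertase Pcsk1, which cleaves Vgf and other precursors, gave 0.73, 0.13 and 0.58, and Pcsk2 -0.080, -0.090 and 0.12. Of the 16 activity-regulated genes, Egr1 in CA1-like nuclei was the 1 gene past the size rule in these 3 classes, on the lower side (background 1.03%). The list medians for the vesicle genes were -0.031, 0.14 and 0.12.

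**Figure D4:**
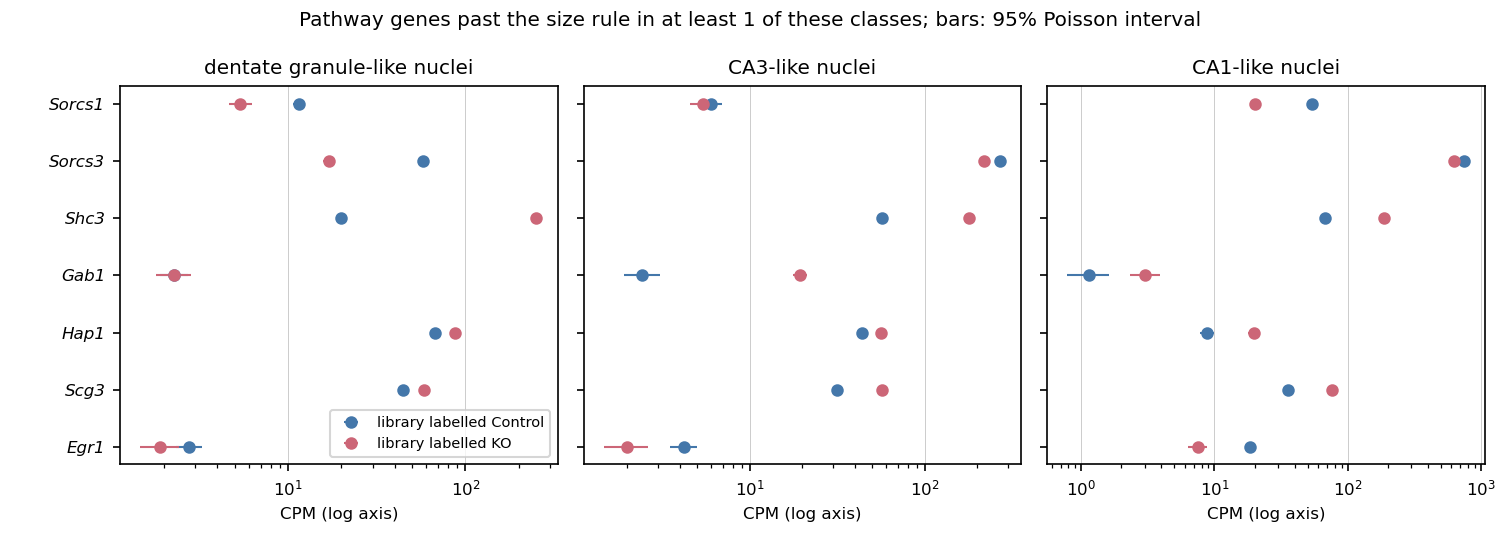
CPM (log x axes) in the granule, CA3 and CA1 classes (panels) of 7 pathway genes that passed the size rule in at least 1 of these classes, with 95% Poisson intervals for counting error. Shc3 is higher in the library labelled KO in all 3 panels, Gab1 has its widest gap in CA3-like nuclei, and Sorcs3 is lower in the library labelled KO by more in dentate granule-like nuclei than in the other panels.

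Across the 15 classes of the Control library, the genes whose log2(CPM + 1) correlated most with each member are given as a description, over 11558 genes that reached 20 CPM in a class; classes of 1 library share depth and any free RNA, and genes are not independent. For Bdnf they were Nrgn (0.927), Rnf112 (0.904) and Icam5 (0.894), with Pearson's r in parentheses; Nrgn (neurogranin) is a calmodulin-binding protein of excitatory neurons and Icam5 an adhesion molecule of their dendrites. For Ntf3 they were Slc66a2 (0.843), Nsa2 (0.769) and Naf1 (0.743). For Ntrk2 they were Gm47423 (0.954), which overlaps Ntrk2 on the opposite strand, Ppargc1a (0.926) and Hmgcll1 (0.896). For Ntrk3 they were Chrna7 (0.906), 4930590L20Rik (0.887) and Sgsm2 (0.885); Chrna7 encodes a nicotinic receptor subunit. For Vgf, whose order rests on few UMIs, they were Gm20559 (0.937), Nupr1 (0.898) and Gga1 (0.897). In the GRCm38 annotation Bdnf, Ntrk2 and Ntrk3 overlap other counted genes, while Ntf3 and Vgf overlap none. These overlaps are on the opposite strand, except that Gm39038 overlaps Ntrk3 on the same strand over 14598 bases. How reads of overlapping genes were assigned was not examined.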

How the data were processed

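In all, 2 libraries of single nuclei were analysed, 1 per group. Values deposited by the authors are unnormalized UMI counts for each gene in each nucleus, from Cell Ranger 8.0.1 on mm39, per the submitters' processing notes. Nuclei with at least 500 genes and at most 5% mitochondrial UMIs were kept, and doublets called by Scrublet in scanpy 1.11.5 (expected rate 0.1) were removed (13.1% and 10.7%). Both libraries were clustered together without batch correction (3000 variable genes, 30 components, 15 neighbours, Leiden resolution 1), leaving out Xist, Tsix, Y-linked and mitochondrial genes. A cluster took the name of the marker set, of 22, with the highest mean log2 fold, given 3 raised markers, a mean of 0.75, a margin of 0.25 over the next set and no stronger claim of another set on its 10 leading genes; these thresholds were set after the clusters were seen. UMIs were summed per library and class. Intervals are exact: Poisson for levels, conditional binomial for ratios and Clopper-Pearson for shares. Nuclei with 2 or more Xist UMIs and no Y-linked UMI were called female, and those with no Xist and a Y-linked UMI male. Named genes were the 5 members, other neurotrophin genes (not all are reported here), Cic, Etv4, 6 activity genes, list genes past the size rule in 3 classes (with relatives named as contrast after their values were seen) and 3 genes most like each member. The members and lists were chosen with earlier results of these data known. Alternatives were other scalings (edgeR 4.0.16), filters, depth, sexes and clusterings. The scripts recovered known ratios in simulated data with Poisson counting error only. That checks the code and not the spread between mice or preparations. GENCODE M21 on GRCm38 matched 31961 of 33696 gene identifiers and served only for overlaps and Y-linked genes; promoter sequences are from RefSeq on GRCm38.p6, a build other than that of the counts.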

Additional observations from a re-analysis of the deposited data

Results flagged for a closer look

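Ntf3 and Ntrk3 gave ratios of opposite sign in the sexes. Over all nuclei the log2 ratio of Ntf3 was 0.20 in female and -0.34 in male nuclei, with intervals on either side of 0 (0.10 to 0.30 and -0.43 to -0.26). In inhibitory-like nuclei Ntrk3 gave -0.31 in female and 0.063 in male nuclei. The difference between the sexes was not tested: each library pooled a single female and 2 males, so sex and mouse cannot be told apart.

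Clusters that stayed unnamed, which no comparison of classes used, also held differences past the size rule; the ones given are those with at least 100 nuclei in each library, and cluster 27. Vgf was higher in the library labelled KO in cluster 8 (1.24; 144 and 250 UMIs), cluster 15 (2.18; 29 and 108), cluster 17 (1.62; 55 and 184), cluster 18 (2.21; 35 and 157), cluster 24 (1.94; 26 and 158) and cluster 30 (2.09; 7 and 61). Cluster 27 had only 36 nuclei in Control and 341 in the library labelled KO, with 1 and 116 Vgf UMIs (3.19, interval 1.27 to 9.09). In cluster 28, of median depth 1113 UMIs and with Mal, Hspa8 and Vgf among its leading genes, the Vgf ratio was 2.36 (62.4 and 324 CPM). Ntf3 was higher in the library labelled KO in cluster 18 (1.48; 97 and 259 UMIs) and cluster 30 (1.41; 85 and 436), whose nearest marker set was CA1 and which shared Dsc3 among their leading genes.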

How the results depend on the processing

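Over all classes, 873 recomputed ratios of the 5 genes gave 750 that moved by less than their counting interval, 123 that moved by more and 0 with a turned direction among values past the size rule. Only the Vgf ratios past the size rule could be counted as turned. Smaller ratios did change sign, also in classes not listed below. Bdnf in inhibitory-like nuclei went from 0.14 to -0.44 in female nuclei. Ntrk3 in oligodendrocyte-like nuclei went from -0.15 to 0.68 with the microglia-like level subtracted. The Vgf ratio was above 0 in all alternatives run in the granule, CA3 and CA1 classes. The values that moved follow for these classes, in which 284, 129 and 348 genes passed 2-fold as reported; their cause was not tested. Thinned to 2000 UMIs per nucleus the log2 ratios were for Bdnf -0.10 in CA1-like, -0.015 in CA3-like, for Ntf3 -2.05 in CA1-like, -1.27 in CA3-like, for Ntrk3 -0.32 in CA1-like, -0.14 in dentate granule-like, for Vgf 1.60 in CA3-like. In female nuclei the log2 ratios were for Bdnf 0.72 in CA1-like, 0.0033 in CA3-like, for Ntf3 2.22 in CA1-like, -1.77 in CA3-like, 0.062 in dentate granule-like, for Ntrk2 -0.30 in CA1-like, -0.032 in CA3-like, -0.16 in dentate granule-like, for Ntrk3 -0.45 in CA1-like, -0.15 in CA3-like, -0.069 in dentate granule-like, for Vgf 1.26 in CA1-like, 1.53 in CA3-like, with 530 in CA1-like, 240 in CA3-like genes past 2-fold. In male nuclei the log2 ratios were for Bdnf 0.069 in CA1-like, for Ntf3 -0.36 in dentate granule-like, for Ntrk2 -0.12 in CA1-like, -0.066 in dentate granule-like, for Ntrk3 -0.14 in CA1-like, -0.13 in dentate granule-like, for Vgf 2.08 in dentate granule-like. In nuclei without an activity-gene UMI the log2 ratios were for Bdnf 0.60 in CA1-like, 0.88 in CA3-like, 0.49 in dentate granule-like, for Ntrk2 -0.069 in CA1-like, 0.14 in CA3-like, for Ntrk3 -0.29 in CA1-like, for Vgf 1.52 in CA1-like, 1.42 in CA3-like. Clustered without the genes past the size rule the log2 ratios were for Ntf3 -0.44 in CA3-like, for Ntrk3 -0.13 in dentate granule-like. With the microglia-like level subtracted the log2 ratios were for Ntf3 3.85 in CA3-like, for Vgf 2.88 in dentate granule-like. With TMM scaling the log2 ratios were for Ntrk2 -0.31 in CA1-like, -0.068 in CA3-like, for Ntrk3 -0.35 in CA1-like, -0.18 in CA3-like. With median-of-ratios scaling the log2 ratios were for Ntrk2 -0.30 in CA1-like, -0.060 in CA3-like, for Ntrk3 -0.35 in CA1-like, -0.17 in CA3-like, -0.12 in dentate granule-like. At Leiden resolution 2 the log2 ratios were for Ntrk2 -0.11 in CA1-like. With a minimum of 20 UMIs and no CPM minimum there were 996 in CA1-like, 551 in CA3-like, 965 in dentate granule-like genes past 2-fold. The Ntf3 values in CA3-like and CA1-like nuclei rest on few UMIs, except that clustered without the genes past the size rule, where no CA2-like class formed and the CA3-like class was composed differently. No paired analysis was possible because each group was 1 library. Depth limits Vgf: at 2000 UMIs per nucleus few nuclei of any class held a Vgf UMI. Class names, free RNA and the pooling of mice limit all values.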

Other observations

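Cluster 33, a small cluster with 70 nuclei in Control and 113 in the library labelled KO, had markers of hilar mossy cells as its nearest set, with CA3 markers close behind, and stayed unnamed. Its Bdnf level in Control was 99.7 CPM, against 74.1 in dentate granule-like nuclei, and 65.2 in the library labelled KO (log2 ratio -0.61, interval -0.93 to -0.30), opposite in sign to the granule and pyramidal classes. Vgf in this cluster stood at 19.6 and 20.9 CPM over 36 and 52 UMIs. Cluster 15, between the marker sets of immature and mature granule neurons, held 72.6 and 47.2 CPM of Ntf3 (log2 ratio -0.62).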
